A study of Mus musculus and synthetic construct with 15 samples.

Results

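The regions described here are 266 of the 3820 candidate heart enhancers of 400 bp in a reporter pool, all from the mouse genome (mm10). They carry the tag p300AVB and no other tag in their identifier, and the deposited table places them in an occupancy group other than the one labelled spMTF or spP300. The groups are named TF1-2, with 124 regions, TF3-4, with 77 regions, and MTF or P300, with 65 regions. The tag and the group names are used as deposited, since the labels do not spell them out, and the tag alone does not say towards which chamber a region was biased. Membership rests on these labels and on no reporter count.

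The study measured many enhancers at once in the living heart, with reporters packaged in adeno-associated virus (AAV9-MPRA, a massively parallel reporter assay). The pool was given to wild-type mouse pups at postnatal day 0, and both chambers were taken at postnatal day 7. There were 5 libraries of atrial RNA and 5 libraries of ventricular RNA, both labelled as cardiomyocytes, and 5 libraries of DNA from the AAV pool itself. The counts cover reporter sequences only, so the cell type could not be checked against marker genes, and the AAV DNA was that of the virus and not that recovered from the hearts. Nothing in the labels says that libraries of a group came from separate animals, so p-values measure the spread between libraries, which may be technical.

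p300 is a histone acetyltransferase that is recruited to DNA by transcription factors, and its binding is widely used to find active enhancers. Cardiac enhancers are often bound by several factors together, among them members of the GATA, T-box, MEF2, TEAD and NKX2-5 families. In an MPRA each candidate drives its own reporter, so that RNA set against DNA measures the activity of a short sequence away from its native locus. Atrial and ventricular cardiomyocytes share much of their contractile gene programme and differ in a smaller set of chamber genes.

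The regions lay across the genome in a way close to the rest of the pool. The midpoint fell inside a protein-coding gene for 140 of the 266 (52.6%), against 50.6% of the 249 p300AVB regions with an "sp" group and 49.9% of all regions. A further 94 had a protein-coding gene within 100 kb, and 32, described below as having no gene nearby, had none. Only 12 had another region of the pool within 5 kb, and none overlapped another region. Nearest genes are given as a position, not as a target of the region.

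Sequence could be shown for regions that hold a promoter window of RefSeq (GRCm38.p6, the same build as mm10), which runs from 250 bases before to 50 bases after an annotated gene start. Of the 266 regions, 5 overlapped such a window and 3 held one whole. The 2 windows below are shown because they stand for the 2 situations met throughout: a region well represented in the DNA pool, and a region nearly missing from it. Capitals mark matches, on either strand, to short forms of cardiac factor motifs: TGATAA and, with another first letter, AGATAA for GATA factors, AGGTGT for T-box factors, CTATTTA for MEF2, AAGTG for NKX2-5 with its longer form CACTTAA, which contains the shorter one read on the other strand, GGAATG for TEAD, AGGTCA for nuclear receptors and, for ERR, AAGGTCA, which contains the previous one. Among all 32851 windows, 18.6% held a GATA form, 46.4% an NKX2-5 form, 16.3% the nuclear receptor form, 13.7% the T-box form, 14.7% the TEAD form, 4.72% the ERR form and 2.91% the MEF2 form.
Gm32900 window, chr3:101354554-101354853, minus strand: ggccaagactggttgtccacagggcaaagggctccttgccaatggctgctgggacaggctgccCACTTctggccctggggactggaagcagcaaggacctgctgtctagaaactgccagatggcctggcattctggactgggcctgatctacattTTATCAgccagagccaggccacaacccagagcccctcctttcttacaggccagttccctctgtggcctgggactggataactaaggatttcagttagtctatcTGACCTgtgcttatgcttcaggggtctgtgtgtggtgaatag
Lincred2 window, chr4:119050756-119051055, plus strand: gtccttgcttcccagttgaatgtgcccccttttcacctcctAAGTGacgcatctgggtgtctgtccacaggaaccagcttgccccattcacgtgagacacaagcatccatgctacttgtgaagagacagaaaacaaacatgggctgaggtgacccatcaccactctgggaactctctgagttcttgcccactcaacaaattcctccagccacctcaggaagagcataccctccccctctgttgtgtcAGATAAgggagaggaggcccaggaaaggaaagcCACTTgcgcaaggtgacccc
The Gm32900 window held 1 GATA, 1 NKX2-5 and 1 nuclear receptor match, and the Lincred2 window held 1 GATA and 2 NKX2-5 matches. Neither held a T-box, MEF2, TEAD or ERR match. A match describes letters and not a bound site. The region around the Gm32900 window, near Igsf3 and in group TF1-2, had 66.7, 87.8, 83.9, 84.9 and 74.1 CPM (counts scaled to a common library size) in atrial RNA, against 125, 115, 150, 120 and 120 CPM in DNA. All 5 atrial values were below all 5 DNA values, with a log2 difference of -0.66 ± 0.15 (SE, adjusted p = 0.0011). Scaling on library totals, or on the regions that the group column calls Neg, moved the atrial over DNA median of all tested regions up by 0.48 and 0.65. The second shift is nearly as large as this difference, so its size depends on the scaling. Its ventricular RNA was not called against DNA (log2 -0.32, adjusted p = 0.061). The difference between chambers was not called either (log2 atrial over ventricular RNA -0.22, adjusted p = 0.45). The region around the Lincred2 window, near Slc2a1 and in group MTF or P300, had 0, 205, 239, 370 and 137 raw counts in atrial RNA and 0, 308, 323, 275 and 345 in ventricular RNA, against 1, 0, 0, 0 and 2 in DNA. It was thus counted in replicates 2 to 5 of both chambers and not in replicate 1.

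Total counts ran from 877773 to 2369985 in atrial RNA, from 1271527 to 3781726 in ventricular RNA and from 2312820 to 2958271 in DNA, with replicate 1 the shallowest RNA library in each chamber. Of the 266 regions, 84 (31.6%) averaged under 10 counts in DNA, close to the 31.9% of all regions, and were not tested. The other 182 were tested, 85 in TF1-2, 54 in TF3-4 and 43 in MTF or P300. Calls were read from fits over all 2601 tested regions of the pool by the quasi-likelihood test of edgeR, at a Benjamini-Hochberg adjusted p under 0.05. The filter uses DNA only and so treats the chambers alike. CPM are after TMM scaling within each comparison, so that a DNA value differs slightly between comparisons, and intervals for low counts cover counting error only.

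Between the chambers, these regions were called higher in atrium far more often than lower. Of 182, 44 were higher in atrium (24.2%), while 15.8% of all tested regions were, and 7 were lower in atrium (3.85%), while 15.1% of all tested regions were. The other 131 were not called. Their median log2 atrial over ventricular RNA was 0.24 (quartiles -0.07 and 0.55), beside 0.03 over all tested regions, and 71.4% of their values were above 0, beside 52% of all. Differences were mostly under 2-fold: 12 were called at least 2-fold higher in atrium (4.88% of all tested regions were) and 1 at least 2-fold lower (3.04% of all). Of the 44 called higher, 24 had 5 atrial values all above the 5 ventricular values. In the whole pool 261 of the 412 called higher did (10% of all tested regions). Of the 7 called lower, 5 had no overlap, beside 308 of 392 in the pool (11.8% of all tested regions).

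**Figure D1:**
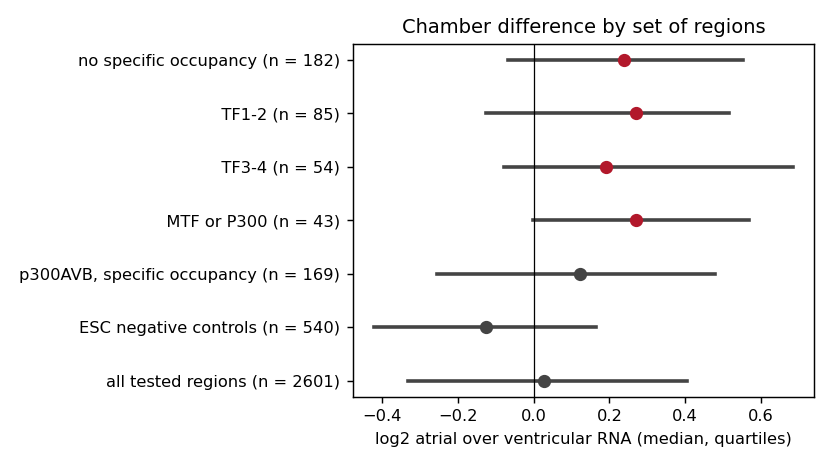
Median (point) and quartiles (bar) of log2 atrial over ventricular RNA over the tested regions of each set, with the number of regions in brackets. Red points are the regions without an "sp" group and their 3 occupancy groups, with medians from 0.19 to 0.27. The 3 grey points are the p300AVB regions with an "sp" group (0.12), the ESC negative controls (-0.12) and all tested regions (0.03).

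The number of calls changed with single libraries. Without ventricular replicate 5, 28 of 182 regions were called higher in atrium, beside 362 of all 2601 tested regions (13.9%), so the excess was small there. Leaving out any other single RNA library gave 30 to 40, beside 13.1% to 15.5% of all. Without replicate 1 of both chambers 35 were higher and 6 lower, beside 15% and 12.6% of all. Scaling on the regions that the group column calls Neg moved the median of all tested regions by 0.13. With it 50 were higher and 2 lower, both of the latter among the 7, beside 18.8% and 7.96% of all. Each of the 5 atrial libraries was also set against the mean of the 5 ventricular libraries. The median of the regions then lay above that of all tested regions each time, by 0.19 to 0.29. These 5 values share the ventricular mean and are not separate repeats.

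With all libraries, the 3 occupancy groups leaned the same way. In TF1-2, 17 of 85 regions were higher in atrium (20%) and 4 lower (4.71%), with a median log2 of 0.27. In TF3-4, 15 of 54 were higher (27.8%) and 2 lower (3.7%), with a median of 0.19. In MTF or P300, 12 of 43 were higher (27.9%) and 1 lower (2.33%), with a median of 0.27. Of all tested regions, 15.8% were higher and 15.1% lower. The quartiles of the 3 groups overlapped widely, and differences between groups were not tested. Without ventricular replicate 2, and likewise without ventricular replicate 5, TF1-2 had 9 of 85 regions called higher, beside 13.1% and 13.9% of all tested regions. Without ventricular replicate 3, TF3-4 had 8 of 54, beside 13.8% of all. The excess of atrial calls in these groups thus depended on single libraries. With 1 library left out in turn, the median of each group stayed above that of all tested regions, by 0.17 to 0.30. The p300AVB regions with an "sp" group had 26 higher and 20 lower of 169, with a median of 0.12, and the regions tagged ESC negative had 22 higher and 70 lower of 540, with a median of -0.12. Those differences between sets were not tested either.

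How often a region was called moved with its abundance in the pool. With at least 300 counts in DNA, 30 of 82 regions were higher in atrium and 3 lower (median 0.27), beside 290 higher and 191 lower of all 1177 regions in that range (median 0.11). Between 100 and 300 counts, 7 of 33 were higher and 0 lower (median 0.24), beside 69 and 97 of 570 (median -0.02). Between 10 and 100 counts, 7 of 67 were higher and 4 lower (median 0.16), beside 53 and 104 of 854 (median -0.09). The median of these regions was thus above that of all regions in each of the 3 ranges. By position, the medians were 0.26 over 98 regions inside a gene, 0.22 over 60 with a gene within 100 kb and 0.28 over 24 with none.

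**Figure D2:**
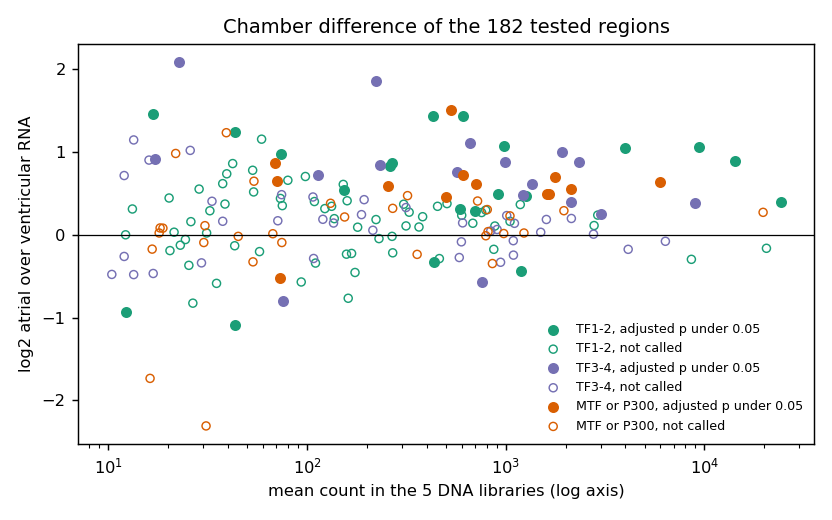
Each point is 1 of the 182 tested regions: its mean count in the 5 DNA libraries (log axis) and its log2 atrial over ventricular RNA, coloured by occupancy group and filled where the adjusted p was under 0.05. Filled points lie above 0 for 44 regions and below 0 for 7, and most of those above 0 have at least 300 counts.

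The largest atrial excess among regions with separated libraries was in Gm3667 (chr14:6888737-6889136, group TF3-4), a predicted gene of a multi-copy family, so that its counts may be shared with near-identical copies and are uncertain. It had 48.5, 43.9, 17.0, 43.2 and 32.1 CPM in atrial RNA, against 11.8, 7.52, 6.87, 5.41 and 12.3 CPM in ventricular RNA, a log2 difference of 2.08 ± 0.41 (SE, adjusted p = 0.0010). All of these are low levels, and the mean count in DNA was 22.6.

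The region inside Unc13c (chr9:73753550-73753949, TF3-4), which encodes a synaptic vesicle priming factor, had 409, 250, 181, 107 and 193 CPM in atrial RNA, against 66.6, 59.7, 96.8, 47.1 and 44.5 CPM in ventricular RNA. The libraries did not overlap, although the lowest atrial value came close to the highest ventricular one, and the log2 difference was 1.85 ± 0.33 (adjusted p = 0.00058). Against DNA its atrial RNA was higher, by a log2 of 0.90 ± 0.28 (adjusted p = 0.011), and its ventricular RNA lower, by -0.85 ± 0.19 (adjusted p = 0.00071), with the same DNA libraries in both comparisons.

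The region inside Nav1 (chr1:135544668-135545067, MTF or P300), a gene for a protein that binds growing microtubule ends, had 366, 267, 663, 241 and 650 CPM in atrial RNA, against 146, 153, 147, 207 and 118 CPM in ventricular RNA. Atrial replicates 3 and 5 stood well above the other 3, and the log2 difference was 1.5 ± 0.29 (adjusted p = 0.0020). The region inside Wwox (chr8:114488535-114488934, TF1-2), which encodes a WW-domain oxidoreductase known as a tumour suppressor, had 77.8, 55.0, 141, 75 and 97.0 CPM in atrial RNA, against 41.5, 34.8, 19.3, 46.8 and 24.3 CPM in ventricular RNA (log2 1.43 ± 0.31, adjusted p = 0.0026). Here RNA was below DNA in both chambers, with log2 values of -1.42 in atrium and -2.73 in ventricle.

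Next in size were a chromosome 4 region with no gene nearby (chr4:64437831-64438230, TF1-2) and a region inside St8sia2 (chr7:74006812-74007211, TF3-4), which encodes a polysialyltransferase. The first had 33.8, 51.7, 70.4, 75 and 31.4 CPM in atrial RNA, against 30.6, 15.4, 25.2, 21.9 and 19.1 CPM in ventricular RNA (log2 1.24 ± 0.33, adjusted p = 0.0093). The second had 89.1, 66.1, 120, 68.8 and 165 CPM in atrial RNA, against 54.1, 43.1, 23.5, 57.7 and 57.9 CPM in ventricular RNA (log2 1.11 ± 0.31, adjusted p = 0.013). In both, the groups were separate by a small margin.

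The most precisely measured differences were in regions abundant in the pool. The region near Bdkrb2 (chr12:105529528-105529927, TF1-2), a bradykinin receptor gene 33445 bp away, had 6550, 6223, 6774, 6393 and 5840 CPM in atrial RNA, against 3579, 3261, 3523, 3299 and 3474 CPM in ventricular RNA (log2 0.89 ± 0.06, adjusted p = 2.2e-08). The region near Lhx3 (chr2:26176730-26177129, TF1-2), a LIM-homeodomain factor gene 23283 bp away, had 4653, 4224, 4104, 3772 and 3556 CPM in atrial RNA, against 2190, 2126, 1871, 1794 and 1792 CPM in ventricular RNA (log2 1.06 ± 0.09, adjusted p = 2.4e-07). With TMM scaling, the RNA of both was below DNA in the atrium (log2 -0.31 near Bdkrb2 and -0.34 near Lhx3) as well as in the ventricle (-1.09 and -1.28). Near Lhx3 the libraries overlapped, with 4107 CPM in atrial replicate 1 and 3972 CPM in DNA replicate 3. Library totals and scaling on Neg regions moved the atrial over DNA median of all tested regions up by 0.48 and 0.65. Those shifts exceed both atrial differences, so their sign depends on the scaling. In both regions, each chamber kept to a narrow range. The 2 remaining regions of this kind were a chromosome 8 region with no gene nearby (chr8:8488624-8489023, TF1-2) and one inside 9930012K11Rik (chr14:70157387-70157786, TF3-4), with log2 differences of 1.05 ± 0.15 (adjusted p = 0.00011) and 1.0 ± 0.13 (adjusted p = 2.6e-05).

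**Figure D3:**
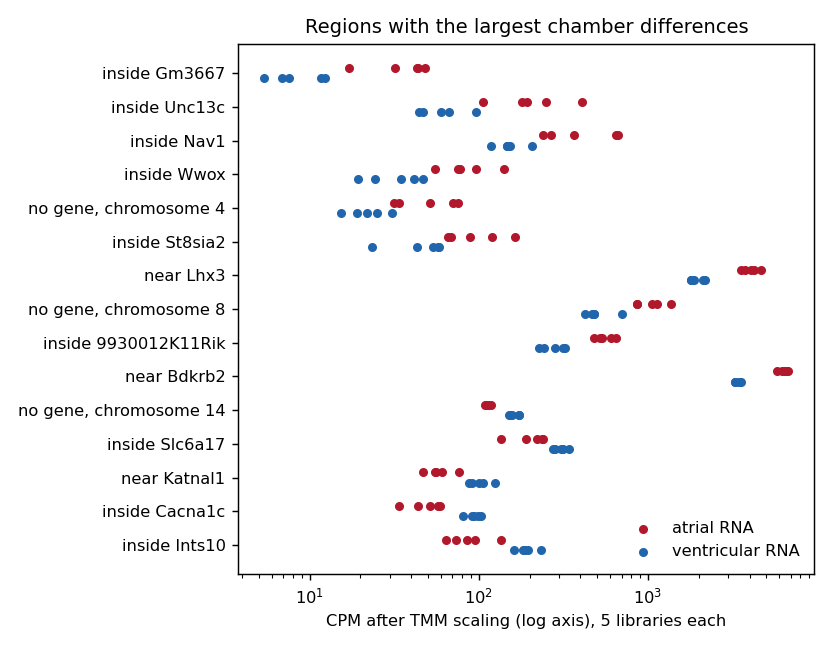
CPM after TMM scaling (log axis) of the 15 regions with the largest called chamber differences and separated libraries, 5 atrial and 5 ventricular libraries each. The 10 upper rows are higher in atrium, from Gm3667 (log2 2.08) to Bdkrb2 (0.89), and the 5 lower rows are higher in ventricle, down to Ints10 (-1.09).

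Among the 7 regions lower in atrium, 5 had separated libraries. The region inside Ints10 (chr8:68828647-68829046, TF1-2), a gene for a subunit of the Integrator complex that processes small nuclear RNAs, had 94.7, 135, 73.9, 64.1 and 85.6 CPM in atrial RNA, against 233, 197, 182, 163 and 187 CPM in ventricular RNA (log2 -1.09 ± 0.21, adjusted p = 0.00087). The region inside Cacna1c (chr6:119165703-119166102, TF1-2), the gene for the pore of the cardiac L-type calcium channel, had 44.0, 51.7, 57.3, 33.9 and 58.9 CPM in atrial RNA, against 94.0, 98.9, 80.4, 91.6 and 104 CPM in ventricular RNA (log2 -0.93 ± 0.22, adjusted p = 0.0045). Both kept their call in every alternative in which they were tested, and both were above DNA in each chamber.

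The other 3 had smaller differences. Near Katnal1 (chr5:148809544-148809943, TF3-4), a microtubule-severing katanin gene 61841 bp away, the log2 difference was -0.80 ± 0.21 (adjusted p = 0.0088). Inside Slc6a17 (chr3:107505582-107505981, TF3-4), an amino acid transporter of synaptic vesicles, it was -0.57 ± 0.16 (adjusted p = 0.014), and for a chromosome 14 region with no gene nearby (chr14:97559383-97559782, MTF or P300) it was -0.52 ± 0.15 (adjusted p = 0.015). With scaling on Neg regions none of the 3 was called, at log2 values of -0.65, -0.43 and -0.39. Slc6a17 (adjusted p = 0.12 there) was also not called with no filter (adjusted p = 0.051) or with the filterByExpr filter (adjusted p = 0.053).

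None of the 266 regions had its nearest gene on the lists of 24 atrial genes, 34 cardiac transcription factors or 31 sarcomere and Z-disc genes. The same held for 23 genes of other cell types (endothelial, fibroblast, smooth muscle and nerve). The lists are selections, so regions at other genes of these kinds are not counted here. The whole pool held 44, 51, 32 and 7 regions at genes of those lists (1.15%, 1.34%, 0.838% and 0.183% of the pool). The set leaves out regions with any other tag, and the part of this choice in the difference was not tested. From the 19 ventricular genes, at which the pool held 49 regions, there was 1 of the 266 (0.376%, beside 1.28% of the pool), Rbm20, a splicing regulator of titin, and it was too scarce in DNA to test. From the 32 ion channel and calcium handling genes, at which the pool held 40 regions, there were 3 (1.13%, beside 1.05% of the pool), Cacna1c, Cacna1d (a second L-type channel pore) and Gja1 (the gap junction protein connexin 43). Of these, 2 were tested between chambers, and Cacna1c was the one called.

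Against the DNA of the pool, atrial RNA was called higher for 60 of the 182 regions (33%), beside 38.4% of all tested regions, and lower for 78 (42.9%), beside 36.3% of all. The median log2 was -0.23, beside 0.04 over all tested regions. Ventricular RNA was called higher for 53 regions (29.1%), beside 43.4% of all, and lower for 85 (46.7%), beside 37.8% of all, with a median of -0.34 beside 0.13. Both comparisons use the same 5 DNA libraries. The labels do not say whether these and all RNA libraries come from 1 preparation of the pool, and regions with 0 DNA counts were counted in the RNA of replicates 2 to 5, as described below, so RNA over DNA holds only relative to the DNA as sequenced. These splits depend on the scaling. With library totals, atrial RNA was higher for 74 of 182 and lower for 55, beside 50.4% and 23.1% of all tested regions. With Neg regions it was higher for 84 and lower for 44, beside 55.1% and 18.3% of all. Ventricular RNA was higher for 68 and lower for 64 with library totals, beside 52.7% and 28.1% of all. With Neg regions it was higher for 69 and lower for 62, beside 52.9% and 27.3%. The same scalings moved all tested regions too. The median of these regions stayed below that of all tested regions by 0.27 or 0.28 in atrium and by 0.45 to 0.46 in ventricle.

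The group TF3-4 had the lowest RNA over DNA. In atrium 12 of 54 were higher and 28 lower, with a median log2 of -0.58, while TF1-2 had 32 higher and 33 lower of 85 (median -0.04) and MTF or P300 16 higher and 17 lower of 43 (median -0.05). In ventricle TF3-4 had 9 higher and 33 lower (median -0.69), TF1-2 30 higher and 31 lower (median -0.14), and MTF or P300 14 higher and 21 lower (median -0.32). The groups also differed in abundance, with a median DNA count of 440 in TF3-4, 161 in TF1-2 and 270 in MTF or P300, and RNA over DNA was lower at high DNA counts in the whole pool, with atrial medians over all tested regions of 1.21 between 10 and 100 DNA counts, 0.20 between 100 and 300 and -0.66 from 300 on. The part of abundance in the difference between groups was not tested. Within ranges of DNA counts, TF3-4 had the lowest median of the 3 groups in every range and in both chambers. Between 10 and 100 counts the atrial medians were 0.55 over 16 TF3-4 regions, 1.15 over 33 TF1-2 regions and 1.37 over 18 MTF or P300 regions, and the ventricular ones were 0.49, 0.79 and 1.0 in the same order. Between 100 and 300 they were -0.40 over 10, -0.24 over 19 and 0.46 over 4 regions in atrium, and -0.60, -0.02 and 0.18 in ventricle. From 300 on they were -1.08 over 28, -0.94 over 33 and -0.83 over 21 regions in atrium, and -1.18, -1.07 and -0.81 in ventricle. In that last range 0 of 28 TF3-4 regions were called higher than DNA in either chamber. Of TF1-2 there were 6 of 33 in atrium and 4 of 33 in ventricle, of MTF or P300 2 of 21 and 1 of 21, and of all 1177 tested regions in the range 237 (20.1%) and 276 (23.4%). These differences between groups were not tested.

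**Figure D4:**
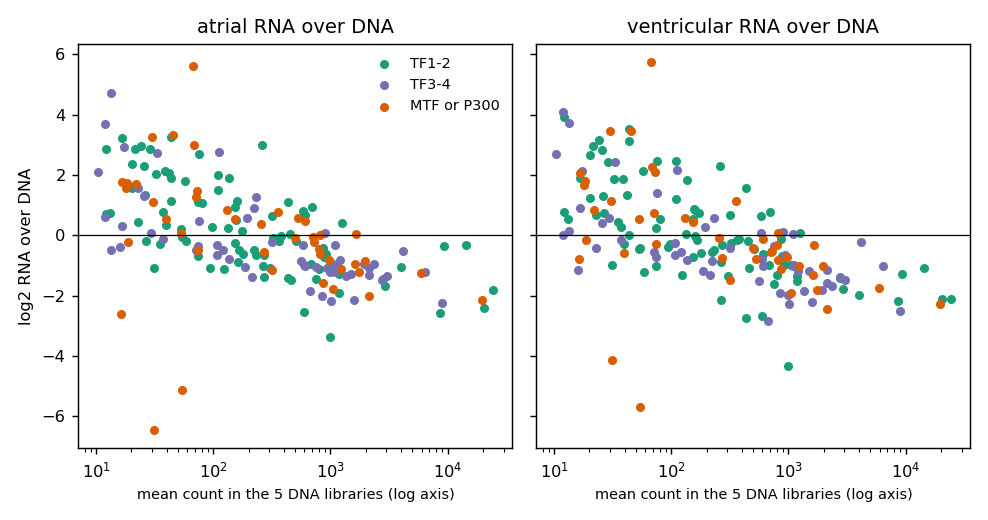
Log2 RNA over DNA of the 182 tested regions, for atrial RNA on the left and ventricular RNA on the right, against the mean count in the DNA libraries (log axis), coloured by occupancy group. DNA counts enter both axes. Values run lower at high DNA counts in both panels, with medians over the regions with at least 300 counts of -0.98 in atrium and -1.05 in ventricle.

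Several regions had RNA far above DNA. The region near Anxa3 (chr5:96905948-96906347, MTF or P300), an annexin gene, had 228, 195, 338, 180 and 337 CPM in atrial RNA, against 27.4, 31.6, 21.7, 47.2 and 31.7 CPM in DNA (log2 3.0 ± 0.25, adjusted p = 9.9e-08).

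The region inside Cacna1c was high in both chambers. It had 83.5, 87.9, 70.8, 80.7 and 90.8 CPM in ventricular RNA, against 5.96, 6.85, 2.80, 5.73 and 5.34 CPM in DNA, 15.2-fold higher (log2 3.92 ± 0.22, adjusted p = 4.9e-11), and in atrium it was 7.31-fold above DNA (log2 2.87 ± 0.30, adjusted p = 9.3e-07). Its mean DNA count was 12.2, near the minimum for testing. The region inside Ints10 had 207, 175, 160, 143 and 163 CPM in ventricular RNA, against 14.9, 21.4, 14.5, 32.2 and 13.8 CPM in DNA (log2 3.12 ± 0.22, adjusted p = 8.9e-10).

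The region near Ndfip1 (chr18:38407801-38408200, TF3-4), the gene of an adaptor of NEDD4-family ubiquitin ligases, had the highest values of all regions with separated libraries, with log2 RNA over DNA of 3.68 ± 0.40 in atrium and 4.08 ± 0.33 in ventricle (adjusted p = 1.6e-06 and 6.5e-09). Its DNA count averaged 12, and its DNA levels in the atrial comparison ranged from 2.32 to 12.7 CPM, so the size rests on few DNA counts. Near Gm38821 (chr6:51129764-51130163, MTF or P300) atrial RNA stood at 3.33 ± 0.36 and ventricular RNA at 3.48 ± 0.25. For a chromosome 13 region with no gene nearby (chr13:44362351-44362750, TF1-2) they were 2.96 ± 0.27 and 3.15 ± 0.21. The remaining ones high in atrium were near Ogfrl1 (3.24 ± 0.49) and inside Adk, the adenosine kinase gene (2.92 ± 0.36). Those high in ventricle were inside the ephrin receptor gene Epha3 (2.95 ± 0.24), inside the nuclear lamina gene Lmnb1 (2.71 ± 0.38) and in a chromosome 17 region with no gene nearby (chr17:54753640-54754039, 2.67 ± 0.23). All of them had an adjusted p below 0.05 and RNA libraries separate from the DNA libraries. Most were scarce in DNA, with mean counts of 16.8 near Ogfrl1 and 17.2 inside Adk. In the atrial comparison DNA levels were 2.76 to 7.08 CPM inside Lmnb1 and 5.56 to 14.6 CPM inside Epha3. They were 6.11 to 14.2 CPM in the chromosome 17 region and 8.27 to 13.9 CPM in the chromosome 13 region. Near Gm38821 they reached 36.8 CPM. The sizes in the scarce regions thus also rest on few DNA counts.

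At the other end, 2 regions gave almost no RNA. The region inside Ahdc1 (chr4:133016211-133016610, MTF or P300), the gene of an AT-hook protein, had 1 count over the 5 atrial libraries and 11 over the 5 ventricular ones, against 155 counts in DNA. By pooled counts over library totals, without TMM scaling, its atrial RNA was 109-fold lower than DNA with a 95% counting interval from 19.2 to 4317. The fit with TMM scaling gave a log2 of -6.44. The region inside Gm3095 (chr14:3948897-3949296, MTF or P300), another predicted gene of a multi-copy family with uncertain counts, had 6 counts in atrial RNA and 6 in ventricular RNA, against 270 in DNA. By pooled counts over library totals it was 31.5-fold lower than DNA in atrium (14.3 to 86.7) and 51.4-fold lower in ventricle (23.3 to 141). The fits gave log2 values of -5.14 and -5.70.

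The region inside Chadl (chr15:81693651-81694050, TF1-2), a gene related to the cartilage matrix protein chondroadherin, was low at high abundance. It had 57.7, 44.4, 39.6, 63.6 and 18.4 CPM in atrial RNA, against 450, 432, 619, 384 and 422 CPM in DNA (log2 -3.37 ± 0.27, adjusted p = 7.5e-08). In ventricle it had 22.3, 22.9, 34.6, 16.9 and 14.4 CPM, against 435, 412, 623, 359 and 409 CPM in DNA (log2 -4.33 ± 0.24, adjusted p = 1.0e-09). The region inside St8sia2, higher in atrium than in ventricle, was also among the lowest in ventricle, at 48.0, 38.3, 20.7, 50.8 and 50.6 CPM, against 300, 296, 274, 298 and 310 CPM in DNA (log2 -2.83 ± 0.19, adjusted p = 8.3e-10). The region inside Atp9a (chr2:168728032-168728431, MTF or P300), the gene of a P4-type ATPase, had no atrial count in 3 of 5 libraries and a log2 of -2.62 ± 0.73 (adjusted p = 0.0053). That size depends on single libraries: it was -4.08 without atrial replicate 2, and from -4.08 to -2.25 with 1 library left out in turn, called each time.

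Of 8 genes that were nearest to 2 of the 266 regions, 4 had both regions tested. Between chambers the log2 values were 0.32 and 0.72 at Prkag2 (the second called, adjusted p = 0.0083), -0.13 and 0.09 at Rock2 (neither called) and 0.87 and -0.18 at Tspan9 (the first called, adjusted p = 0.043). The fourth, Ogfrl1, is given in full and was singled out after its values were seen. It had 1 region 44782 bp away (chr1:23321443-23321842) and 1 inside it (chr1:23377645-23378044), 56202 bp apart and both in TF1-2. The first was higher in atrium (log2 1.45 ± 0.46, adjusted p = 0.026) and above DNA (log2 3.24 in atrium and 1.90 in ventricle). The second was lower in atrium (log2 -0.44 ± 0.15, adjusted p = 0.039) and below DNA (log2 -1.90 and -1.34). The chamber values of both overlapped between libraries: the first had 168, 31.4, 146, 49.5 and 44.8 CPM in atrial RNA, against 36.0, 22.2, 49.7, 31.2 and 20.2 CPM in ventricular RNA.

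As a share of all counts, the 266 regions held 6.04% ± 0.098 of atrial RNA and 4.95% ± 0.061 of ventricular RNA, against 8.22% ± 0.16 of DNA (SD, n = 5 each). Atrial libraries ran from 5.94% to 6.19%, ventricular ones from 4.90% to 5.02% and DNA libraries from 7.95% to 8.34%, so that no 2 kinds of library overlapped. A few abundant regions set much of this. The 10 most abundant in DNA held 2.28% of atrial and 1.71% of ventricular RNA, against 4.81% of DNA. Without them the shares were 3.76% in atrial and 3.24% in ventricular RNA, against 3.41% in DNA. TF1-2 held 3.04% of atrial and 2.31% of ventricular RNA, against 4.27% of DNA. TF3-4 held 1.52% and 1.38%, against 2.11%, and MTF or P300 held 1.48% and 1.26%, against 1.84%.

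**Figure D5:**
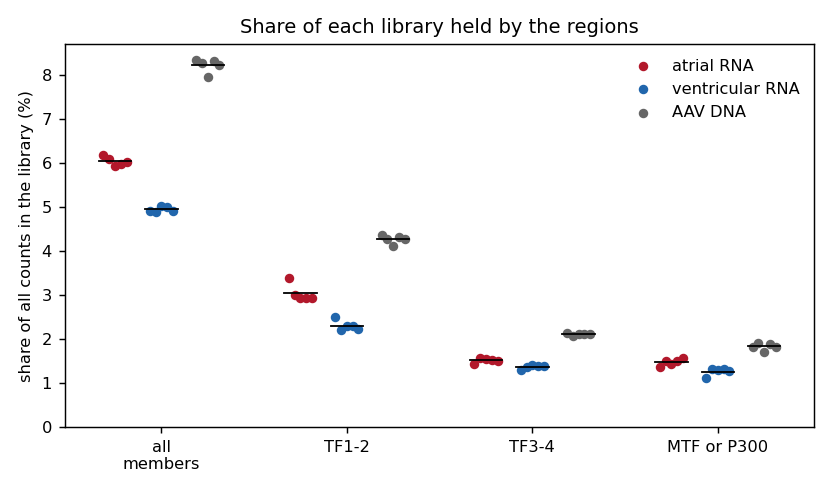
Share of each library's counts held by the 266 regions and by their 3 occupancy groups, in percent. Each point is 1 library, in order of replicate number within a cluster, and the line is the mean of 5: over all 266 regions 6.04% in atrial RNA, 4.95% in ventricular RNA and 8.22% in DNA.

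Replicate 1 of both chambers stood apart from replicates 2 to 5 in a small part of these regions. In 5 of the 182 tested regions (2.75%, beside 3.19% of all tested regions) the mean of replicates 2 to 5 was over 4-fold above replicate 1 in both chambers, and in none was it over 4-fold below. The widest gap was in a chromosome 1 region with no gene nearby (chr1:185727784-185728183, MTF or P300), with 37.2, 2026, 2364, 2474 and 2298 CPM in atrial RNA and 39.2, 2142, 2474, 2165 and 2306 CPM in ventricular RNA. Its fitted log2 RNA over DNA, 5.61 in atrium and 5.74 in ventricle, is higher than any named above and rests on replicates 2 to 5. The other 4 lay inside Fbxw26, Lrrc27, Snx29 and Ntn1. Of the 44 regions called higher in atrium, 43 were also higher in replicate 1 alone, with a median log2 of 0.68 there and 0.75 over replicates 2 to 5, and all 7 called lower were lower in replicate 1. Replicate 1 was part of the calls, so this describes the calls and does not test them.

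The 84 untested regions were nearly missing from the DNA pool but not from the RNA. Together they held 0.636% to 0.685% of atrial and 0.685% to 0.731% of ventricular RNA in replicates 2 to 5, against 0.00549% to 0.00853% of DNA. In all 5 DNA libraries 34 of the 266 regions had 0 counts, as did 488 of all 3820 regions of the pool. Those 488 held 3.34% to 3.86% of atrial and 3.93% to 4.20% of ventricular RNA in replicates 2 to 5. Of the 34, 30 were counted in all 8 RNA libraries of replicates 2 to 5. In replicate 1, 30 of the 34 were at 0 in atrium and 32 in ventricle. A count of 0 allows up to 3 counts in a library. The highest RNA levels, as CPM of library totals, were in a chromosome 10 region with no gene nearby (chr10:95839802-95840201, MTF or P300), with 0, 698, 871, 742 and 1132 CPM in atrial RNA and 1.57, 1416, 1185, 1193 and 1156 CPM in ventricular RNA, and 6 DNA counts in all. No RNA over DNA value is given for such regions. The origin of this RNA was not tested.

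Without the filter on DNA, 5 of these 84 were called between chambers, 1 higher in atrium and 4 lower, beside 0.991% higher and 2.23% lower of all 1211 regions of the pool under the DNA minimum. The region inside Fat3 (chr9:16282348-16282747, MTF or P300), a gene for a giant cadherin, was the one higher in atrium and did not share the gap of replicate 1: it had 183, 187, 198, 201 and 163 CPM in atrial RNA, against 56.6, 69.5, 71.7, 75.9 and 56.4 CPM in ventricular RNA (log2 1.55, adjusted p = 7.3e-05). The region inside Dram1 (chr10:88362315-88362714, TF3-4), which encodes a lysosomal regulator of autophagy, was lower, with 42.2, 26.2, 19.8, 22.5 and 27.5 CPM in atrial RNA, against 87.3, 78.9, 54.2, 75.6 and 85.5 CPM in ventricular RNA (log2 -1.42, adjusted p = 0.0021). In both, the chambers did not overlap. The regions inside Pde4d and Arid1b were also called lower in atrium, with log2 values of -1.45 and -2.93. Inside Pde4d the chambers overlapped, with up to 35.3 CPM in atrial RNA and down to 26.4 CPM in ventricular RNA. Inside Arid1b the size rests on few counts, with 0, 3, 2, 1 and 1 raw counts in atrial RNA. These regions were singled out after their values were seen.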

How the data were processed

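Per the labels, RNA was extracted from atria and ventricles, AAV DNA was freed by proteinase K, and the primer used for copying held a molecular identifier. Per the submitters' processing notes, the build was mm10 and the tools included Bowtie2 2.3.4.3 and cutadapt 2.5. The authors deposited raw counts per 400 bp region, and the sources used here do not say whether these count reads or molecules. The test was the quasi-likelihood F-test in edgeR 4.0.16 (R 4.3.3, TMM, robust) on 5 against 5 libraries. It covered the 2601 regions that averaged at least 10 counts in DNA, with Benjamini-Hochberg adjustment over all of them and calls at an adjusted p under 0.05. The scripts were tested on simulated data. Alternatives were DESeq2 1.42.0, limma voom 3.58.1, other scalings and filters, the replicate block and leaving out libraries.

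Total counts per library set the precision and are given with the results. The nearest protein-coding gene body within 100 kb of a midpoint came from RefSeq (GRCm38.p6). Exons and introns were not told apart. A scan of the regions' own sequences for motifs was planned and not made, since no genome sequence was used here, and so the sequences planned for the regions with the largest chamber differences are not shown.

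Replicate numbers come from the labels. How libraries of 1 number departed from their group means correlated between atrium and ventricle, at 0.23 to 0.82 over regions, above the criterion of 0.1 for pairs. Only number 1 stood clear of the other numbers, at 0.82 beside -0.44 at most. Number 2 had 0.24 beside 0.22, and for numbers 3, 4 and 5 another number correlated more highly. The criterion thus does not settle whether numbers 2 to 5 are pairs.

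Named regions follow a rule: between chambers the largest called differences with separated libraries, up to 10 a direction, and against DNA the 8 highest and 4 lowest likewise, plus called regions at listed genes. Some regions are not reported here and were not replaced, and they stay in the counts of regions called. Further regions that are named were chosen after their values were seen. The members and lists were chosen with earlier results of these data known.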

Additional observations from a re-analysis of the deposited data

Results flagged for a closer look

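In 96 groups of 5 libraries, 11 had a highest or lowest library far from the other 4 by Dixon's criterion (0.71 of the range), and chance gives about 1 in 20 groups. In DNA, replicate 3 stood apart for the share of the 266 regions (7.95%), inside St8sia2 (272 CPM), near Lhx3 (3972 CPM) and inside Chadl (619 CPM), and replicate 1 inside Adk (5.02 CPM). In RNA, replicate 5 stood apart on chromosome 8 at chr8:8488624-8489023 (703 CPM in ventricle) and inside Ahdc1 (3.36 CPM in ventricle). Single low counts did so inside Ahdc1 in atrial replicate 3 (0.486 CPM) and inside Atp9a in atrial replicate 2 (5.24 CPM). Replicate 1 stood apart for the share of TF1-2 in atrium (3.38%) and of MTF or P300 in ventricle (1.11%).

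For 2 of the 182 tested regions atrial RNA was called above DNA and ventricular RNA below it, and the difference between chambers was itself called. How many of all tested regions did so was not counted. Library totals and scaling on Neg regions moved the ventricle over DNA median of all tested regions up by 0.37 and 0.40. The size of a difference from DNA thus depends on the scaling. The 2 regions were the one inside Unc13c (log2 atrial over ventricular RNA of 1.85) and one inside Zmiz1 (chr14:25634338-25634737, TF1-2), the gene of a transcriptional coregulator. The Zmiz1 region had 560, 717, 571, 249 and 617 CPM in atrial RNA, against 175, 177, 254, 198 and 197 CPM in ventricular RNA, so that 1 atrial library lay within the ventricular range (log2 1.44 ± 0.23, adjusted p = 0.00026).

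The 34 regions with 0 counts in all DNA libraries lay outside the tests over regions with enough DNA. They held at least 0.202% of atrial RNA and at least 0.183% of ventricular RNA in each of replicates 2 to 5. All 488 such regions of the pool held at least 3.34% and 3.93%. The cause was not tested.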

How the results depend on the processing

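The 44 and 7 regions called higher and lower in atrium became 28 to 40 and 5 to 7 with 1 library left out. Of all tested regions, 13.1% to 15.5% were then higher and 12.5% to 15.5% lower. With scaling on Neg regions 2 were lower, beside 7.96% of all. Of 696 repeats of named results, 691 kept direction and call, 5 lost the call (Slc6a17, Katnal1 and the region on chromosome 14) and none turned round. Medians below are relative to all tested regions. Between chambers TF1-2 had 0.17 with at least 100 DNA counts. For atrium over DNA, 130 of 266 regions were higher with no filter, beside 50.6% of all. With at least 100 DNA counts 29 of 115 were, beside 38.5% of all. These settings test more and fewer regions. With Neg scaling 44 of 182 were lower, beside 18.3% of all. The median of all members was -0.20 with no filter and -0.42 with at least 100 counts. That of TF1-2 was 0.039 with no filter, -0.16 with at least 100 counts, 0.029 with filterByExpr, -0.057 with voom and from -0.16 to 0.014 with 1 library left out, so its sign is not settled. That of MTF or P300 was -0.15 with at least 100 counts and from -0.13 to -0.010 with 1 library left out, and its own median (-0.05) turned positive without atrial replicate 5 (0.022) or DNA replicate 1, 2, 3 or 5 (0.029, 0.024, 0.0090 and 0.045), and with library totals, Neg scaling or no filter (0.43, 0.62 and 0.65). That of TF3-4 was -0.85 with no filter, -0.79 with voom, -0.73 with the replicate block and from -0.77 to -0.60 with 1 library left out. For ventricle over DNA, 123 of 266 regions were higher with no filter, beside 53.7% of all. With at least 100 counts 27 of 115 were, beside 42.4% of all. The median of all members was -0.58 with no filter, -0.54 with filterByExpr, -0.53 with voom, -0.52 with the replicate block and from -0.54 to -0.45 with 1 library left out. That of TF1-2 was -0.33 with no filter, -0.23 with at least 100 counts, -0.36 with filterByExpr and from -0.29 to -0.21 with 1 library left out. That of TF3-4 was -1.08 with no filter and -0.64 with at least 100 counts, and that of MTF or P300 was from -0.58 to -0.40 with 1 library left out. The cause of these shifts was not tested. The replicate block, which gave 43 regions higher and 8 lower between chambers, moved no count of calls by over 1.5 times.

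Between chambers, 7 regions were higher and 4 lower of 67 with under 100 DNA counts, against 30 and 3 of 82 with at least 300, with median log2 values of 0.16 and 0.27. The part of depth in this was not tested. RNA over DNA is relative to the bulk of the pool.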
